A study of Mus musculus with 22 samples.

Results

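Splenic cDC2s that express the transcription factor T-bet were compared with splenic cDC2s that do not, by bulk RNA-seq. These were 3 T-bet+ and 3 T-bet- libraries, chosen by their labels, of 22 samples in the series (16 RNA-seq and 6 ATAC-seq libraries). The mice were Tbx21RFP-cre knock-in mice, in which RFP reports T-bet, 6 to 10 weeks old and of either sex, and T-bet+ and T-bet- cells alike came from such mice. Cells were sorted from spleen as lineage-, CD64-, Ly6C-, CD11c+, MHC class II+, CD11b+ and XCR1-, and then as RFP+ (T-bet+) or RFP- (T-bet-). The cells of a pair of mice were pooled for each library, and the whole RNA-seq experiment was done once, so replicate error here is that between pools. Between 21720113 and 27317480 reads were counted on genes per library, and 14377 of 34047 listed genes were tested.

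cDC2s are the conventional dendritic cells that present antigen mainly to CD4+ T cells, and they recognise microbes and dying cells through C-type lectins, Toll-like receptors, Fc receptors and scavenger receptors. In the spleen a large share of them sits in the bridging channels and marginal zone, where their development depends on Notch signalling and on chemotactic receptors. T-bet, encoded by Tbx21, is a T-box factor known mainly for its role in T helper 1 cells, NK cells and some B cells.

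Between the subsets 774 of 14377 genes differed (5.38%, edgeR's quasi-likelihood test, adjusted p under 0.05). Of these, 280 were higher in T-bet+ cDC2s (1.95% of genes tested) and 494 in T-bet- cDC2s (3.44%). The 3 libraries of each subset did not overlap for 1888 genes higher in T-bet+ (13.1%) and 1992 higher in T-bet- (13.9%), and all 774 genes were among these. The median absolute log2 fold change was 1.9 for the genes higher in T-bet+ and 2.21 for those higher in T-bet-, with 53 and 171 genes over 3. The median over all genes tested was -0.01 for the signed log2 fold change, which is no background for these absolute sizes.

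The libraries fell into 2 classes by how their counts followed the GC content of transcripts. All 3 T-bet+ libraries and T-bet- replicate 3 were in the higher class (rank correlations of 0.19 to 0.276 over 7584 genes). T-bet- replicates 1 and 2 were in the lower class (-0.457 and -0.305). With this class as a term in the fit, all 280 and all 494 genes kept the sign of their difference, and 185 and 335 of them passed. Over all genes that fit called 241 higher in T-bet+ (1.68%) and 430 higher in T-bet- (2.99%). Whether the class contributed to a given difference was not tested. Use of strand in counting is not stated, so genes with exons over those of another gene may hold its reads. Among the genes named below that passed, these are Arhgap6, Ccna2, Cd180, Cdc20, Clec9a, Csf1r, G6pdx, Il27, Mxd3, P2ry12, Pilra, Ppt1, Rhof, Ryr3, Tnfsf9 and Tspan2.

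Values below are normalized counts in T-bet+ replicates 1 to 3 against T-bet- replicates 1 to 3, and the error of a log2 fold change is its SE. Tbx21 checked the labels, at 545, 587 and 407 against 6.81, 36.5 and 56 (log2 fold change 3.94 ± 0.78, adjusted p = 0.0195). Since RFP was knocked into this gene, its difference follows from the sort. Dtx1 and Cdh17, markers of T-bet+ cDC2s, and Csf1r and Clec12a, markers of T-bet- cDC2s, also passed in their labelled direction, with the values below. The study had named these markers from its own data on the same subsets, so they are no separate check of the labels. None of 6 markers of cDCs passed. Flt3, the receptor for the growth factor of dendritic cells, was at 10954, 11601 and 11613 against 3563, 5532 and 11711. Zbtb46, a factor that marks cDCs, was at 4151, 3826 and 3678 against 475, 724 and 3196. Both were low in T-bet- replicates 1 and 2 and close to the T-bet+ values in T-bet- replicate 3, and the subsets overlapped for Flt3 but not for Zbtb46. The cDC2 marker Sirpa was at 23633, 20531 and 19293 against 15045, 17726 and 39784, and Itgam, which encodes CD11b, at 1056, 1295 and 801 against 2441, 1493 and 1534. Irf4, a factor of cDC2s, was at 7999, 10200.0 and 5827 against 3649, 2199 and 2364 (adjusted p = 0.0516). None of these cDC2 markers passed.

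Markers of other cell types were read by their summed level. The 8 macrophage markers, 5 of them higher in T-bet-, summed to 10767 to 12314 in T-bet+ and 20169 to 29173 in T-bet- libraries. Most of the T-bet+ sum was Adgre1, at 9826, 8424 and 8209 against 13006, 7945 and 9120. Cd5l was at 161, 75.3 and 115 against 207, 202 and 123. The subsets overlapped for both, and neither passed. Vsig4 of that list was at 0 in all 6. The 7 monocyte markers, 3 of them higher in T-bet-, summed to 364 to 505 and 4242 to 9952. Hmox1, which degrades haem, was at 714, 791 and 846 against 4092, 4379 and 2690.2. Spic, a factor of red pulp macrophages, was at 475, 524 and 432 against 2902, 2742 and 1841, and Vcam1 at 696, 691 and 721 against 3975, 1813 and 3038. Ly6c2, whose product was gated out, was at 47.7, 39 and 34.4 against 95.4, 46.2 and 47.1. Markers of nonclassical monocytes summed to 104184 to 122250.0 and 68755 to 107537, with Ace and Treml4 of 4 higher in T-bet-, and most of the sum was Nr4a1 (101243, 119288 and 109577 against 92615, 99907 and 59244). Of 6 cDC1 markers Clec9a, Cadm1 and Tlr3 were higher in T-bet-, with sums of 2263 to 3915 and 1852 to 3378. Batf3 had the highest count of the 6 in every library, at 2712, 1987 and 3613 against 769, 1623 and 1854. It was higher in every T-bet+ library, opposite to those 3, and did not pass (adjusted p = 0.207). Xcr1, used in the gate, was at 163, 166 and 105 against 302, 168 and 242, against a mean of 22442 in spleen cDC1s.

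B cell markers summed to 15394 to 19258 in T-bet+ and 14747 to 16817 in T-bet- libraries, with Ms4a1 higher in T-bet+ and Cd79b higher in T-bet-, and most of the sum was Ighm (12494, 13138 and 13923 against 13095, 12819.9 and 11433). The B cell factor Pax5 was at 0.935, 0 and 0 against 0, 1.22 and 0. T cell markers summed to 704 to 903 and 278 to 403, most of it Cd5 (783, 623 and 778 against 327, 360.0 and 195, adjusted p = 0.07), while Cd3e was at 0, 1.77 and 10.8 against 3.41, 0 and 2.67. NK cell markers summed to 0.983 to 14 and 29.3 to 46.2, and platelet markers to 14.2 to 22.6 and 46.2 to 76.5. Mast cell and basophil markers summed to 0 to 9.35 and 3.56 to 12.5. Erythroid markers summed to 253 to 299 and 131 to 268, and neutrophil markers to 1302 to 1763 and 1071 to 1606. Plasma cell markers summed to 792 to 1172 and 1225 to 1803, with Prdm1 of 3 higher in T-bet-. pDC markers summed to 2328 to 2976 and 2998 to 4269.7. Migratory DC markers summed to 99196 to 113970.0 and 86651 to 117881, with Ccl22 of 5 higher in T-bet-, and most of the sum was Ccr7 (99522, 94821 and 107372 against 114202, 106356 and 81828). The part of other cells in the differences below was not tested, and in bulk samples fewer cells of a type and less RNA per cell cannot be told apart.

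The 15 leading genes higher in T-bet+ were those of largest fitted fold without overlap, at 50 normalized counts or more on average. They encode a ubiquitin ligase of the Notch pathway, adhesion and complement receptors, calcium and lipid handling proteins, kinases, regulators of Ras and a gelatinase. Dtx1, the ubiquitin ligase Deltex, was at 7132, 7423 and 7896 against 145, 195 and 205 (log2 fold change 5.36 ± 0.33, adjusted p = 4.43e-05). The lowest T-bet+ library stood far above the highest T-bet- library. Cdh17, the liver-intestine cadherin, was at 1329, 1572 and 674 against 17, 6.08 and 0 (log2 fold change 7.3 ± 0.93, adjusted p = 0.00228). Mmp9, the gelatinase B that cleaves collagen, was at 4824, 5509.7 and 5299 against 131, 119 and 281 (log2 fold change 4.88 ± 0.45, adjusted p = 0.000454). The T-bet- libraries were low for both, and T-bet+ replicate 3 was the lowest T-bet+ library for Cdh17.

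Cr2, the receptor for complement C3 fragments on B cells, was at 173, 105 and 205 in T-bet+ libraries and had 0 reads in each T-bet- library (adjusted p = 0.0091). With the T-bet- group set at a floor of 3 reads in all, it was at least 150-fold higher in T-bet+. Among genes of calcium handling, Ryr3, a calcium release channel, was at 802, 830.0 and 946 against 35.2, 6.08 and 38.2 (log2 fold change 5.00 ± 0.73, adjusted p = 0.00464). Ncald, a neuronal calcium sensor, was at 799, 818 and 709 against 28.4, 4.86 and 21.3 (log2 fold change 5.39 ± 0.77, adjusted p = 0.00422), and Slc8a2, a sodium/calcium exchanger, at 95.3, 143 and 100.25 against 0, 0 and 4.45 (log2 fold change 5.98 ± 1.04, adjusted p = 0.0187). The T-bet- libraries were low for each and did not approach the T-bet+ range. Slc27a2, which activates very long-chain fatty acids, was at 169, 268 and 137 against 2.27, 2.43 and 9.78 (log2 fold change 5.22 ± 0.70, adjusted p = 0.00676). Fasl, the ligand of the death receptor Fas, was at 106, 81.5 and 127 against 4.54, 0 and 6.22 (log2 fold change 4.77 ± 1.01, adjusted p = 0.0264). Slc8a2 lost the call without any 1 T-bet+ library (adjusted p up to 0.0824). Fasl lost the call without any 1 T-bet+ library or T-bet- replicate 1 or 2 (adjusted p up to 0.0878). Fasl missed the threshold with library class as a term (adjusted p = 0.0602). Slc27a2 and Slc8a2 moved to 4.31 and 4.7 on the log2 scale with the class term.

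The other leading genes higher in T-bet+ were signalling genes. Ppp1r14a, an inhibitor of myosin phosphatase, was at 5434, 4366 and 5404 against 28.4, 137 and 479 (log2 fold change 4.55 ± 1.00, adjusted p = 0.0299), and its T-bet- values were far apart. Rasal1, which turns Ras off, was at 719, 383 and 630.0 against 17, 10.9 and 39.1 (log2 fold change 4.66 ± 0.55, adjusted p = 0.00152). Frmd5, which holds a FERM domain, was at 778, 801 and 1133 against 17, 47.4 and 57.8 (log2 fold change 4.46 ± 0.54, adjusted p = 0.00179). Nek2, a kinase of the centrosome, was at 532, 571 and 450.1 against 18.2, 19.5 and 43.6 (log2 fold change 4.24 ± 0.56, adjusted p = 0.00272). No T-bet- library reached the T-bet+ range for any of these. Ptk6, a non-receptor tyrosine kinase, was at 112, 171 and 139.6 against 7.95, 0 and 9.78 (log2 fold change 4.51 ± 0.89, adjusted p = 0.03). Rasl12, a Ras-like protein, was at 89.7, 101 and 109 against 0, 7.3 and 7.11 (log2 fold change 4.33 ± 0.90, adjusted p = 0.036). Ptk6 lost the call without any 1 T-bet+ library or T-bet- replicate 1 (adjusted p up to 0.118). Ppp1r14a lost the call without any 1 T-bet+ library or T-bet- replicate 2 (adjusted p up to 0.109). Rasl12 lost the call without any 1 T-bet+ library or T-bet- replicate 2 or 3 (adjusted p up to 0.124). Ptk6 and Rasl12 missed the threshold with library class as a term (adjusted p = 0.154 and 0.193). Frmd5, Nek2 and Ppp1r14a moved to 3.81, 3.37 and 3.37 on the log2 scale with the class term.

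The 15 leading genes higher in T-bet-, chosen in the same way, held 4 C-type lectins, a lysozyme, chemotactic and purinergic receptors, a scavenger receptor and matrix or adhesion genes. Lyz1, a lysozyme that cleaves bacterial cell walls, was at 45.8, 52.3 and 31.5 against 13182, 5906 and 5853 (log2 fold change -7.58 ± 0.47, adjusted p = 4.43e-05). Mgl2, a lectin that binds galactose and N-acetylgalactosamine, was at 16.8, 12.4 and 13.8 against 2057, 1504 and 1229.5 (log2 fold change -6.79 ± 0.36, adjusted p = 4.43e-05). Its neighbour Clec10a was at 24.3, 29.2 and 22.6 against 1987, 2402 and 1809 (log2 fold change -6.34 ± 0.60, adjusted p = 0.000563). T-bet+ libraries were below every T-bet- library by a wide margin in all of these. Lyz1 and Lyz2 are near copies of each other, as are Mgl2 and Clec10a, and unique alignment can split their reads unevenly.

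Ccr2, a chemokine receptor that brings monocytes out of bone marrow, was at 34.6, 68.2 and 67.8 against 8069, 2919 and 5293 (log2 fold change -6.57 ± 0.59, adjusted p = 0.00038). Gpr83, a G protein-coupled receptor, was at 16.8, 9.74 and 5.9 against 597, 766 and 557 (log2 fold change -5.87 ± 0.47, adjusted p = 0.000715). P2ry13, a receptor for ADP, was at 1.87, 53.1 and 21.6 against 1909, 859.8 and 1543 (log2 fold change -5.8 ± 0.94, adjusted p = 0.00785). The T-bet- libraries were high throughout, and no T-bet+ library came near them. The activating lectin Clec5a was at 0, 16.8 and 0 against 508, 348 and 295 (log2 fold change -6.03 ± 1.13, adjusted p = 0.0149). Klra2, of the Ly49 family of inhibitory receptors, was at 4.67, 7.97 and 0.983 against 375, 244 and 216 (log2 fold change -5.88 ± 0.81, adjusted p = 0.00329), and the scavenger receptor Msr1 at 43, 28.3 and 17.7 against 1938, 968 and 1099 (log2 fold change -5.48 ± 0.92, adjusted p = 0.0091). All T-bet+ libraries were low for these. Msr1 lost the call without T-bet+ replicate 2 or 3 (adjusted p up to 0.061). Msr1 moved to -4.88 on the log2 scale with the class term.

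Arsi, an arylsulfatase, had 0 reads in each T-bet+ library and was at 86.3, 98.5 and 230.3 in T-bet- (adjusted p = 0.0053), at least 158-fold higher in T-bet-. Emilin1, an elastin-associated matrix protein, was at 3.74, 4.43 and 0 against 359.9, 182 and 560.1 (log2 fold change -6.99 ± 0.77, adjusted p = 0.00101). Sh3pxd2b, an adaptor of podosomes, was at 0.935, 5.31 and 5.9 against 178, 231 and 188 (log2 fold change -5.58 ± 0.47, adjusted p = 0.000275). These genes were near 0 in T-bet+ libraries. Clec9a, which binds the actin of dead cells, was at 1.87, 6.2 and 0.983 against 217, 46.2 and 187 (log2 fold change -5.55 ± 0.72, adjusted p = 0.00251), and the integrin gene Itga8 at 0, 0.886 and 14.7 against 238, 96.1 and 354 (log2 fold change -5.47 ± 1.01, adjusted p = 0.0138). Gcsam, which affects the movement of B cells, was at 1.87, 0 and 0 against 90.8, 75.4 and 195 (adjusted p = 0.000632). Gcsam rested on 2 reads in the T-bet+ group, for a ratio of 205 with an exact 95% interval of 56.4 to 1702. Spleen cDC1s averaged 4254 for Clec9a, 8635 for Gcsam and 1840.0 for Itga8, far more than either cDC2 subset. Itga8 lost the call without T-bet+ replicate 2 (adjusted p up to 0.0709).

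**Figure D1:**
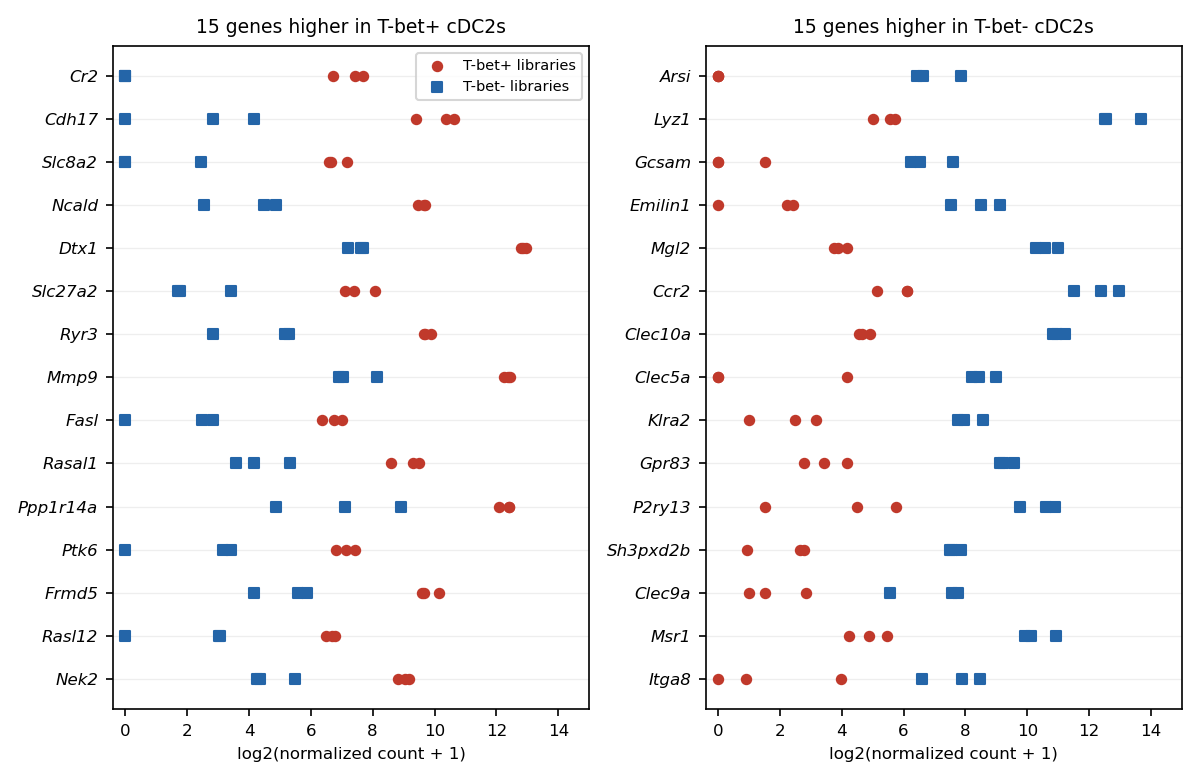
Normalized counts on a log2(count + 1) axis for the 15 leading genes in each direction, 1 point per library (red circles, 3 T-bet+ libraries; blue squares, 3 T-bet- libraries). The subsets do not overlap for any of these genes, which the choice of genes required, and Cr2 and Arsi lie at 0 in all 3 libraries of 1 subset.

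Chromatin accessibility came from other libraries, 2 per subset, as ATAC-seq reads in windows of 150 bases. Of 166547 windows tested, 6529 (3.92%) were more open in the T-bet+ subset and 3931 (2.36%) in the other (edgeR, adjusted p under 0.01, absolute log2 fold change over 0.5). Of the 258 genes higher in T-bet+ with a position, 131 (50.8%) had a window more open in T-bet+ within 10000 bases, and 8 (3.1%) a window more open in T-bet-. Of the 464 genes higher in T-bet-, 166 (35.8%) had a window more open in T-bet- and 89 (19.2%) a window more open in T-bet+. Over all 11857 genes with a position these shares were 21.5% for windows more open in T-bet+ and 12.5% for windows more open in T-bet-.

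Dtx1 had 10 windows more open in T-bet+ of 14, Frmd5 had 12 of 23, and Cdh17 had 4 of 11. Windows can lie close together or overlap, so these are not counts of separate sites. The 4 of Cdh17 all lay within chr4:11763019-11763933. Rasal1 had 7 of 13, of which 6 were also assigned to its neighbour Dtx1. Blk had 5 of 13 and Fasl 5 of 9, whereas Mmp9 had 0 of 6. In the other direction Sh3pxd2b had 6 windows more open in T-bet- of 13, Msr1 5 of 17, Csf1r 4 of 18 and Lyz1 4 of 10. Of the last 4, 3 were also assigned to its neighbour Lyz2. Clec12a, Ccr2 and Mgl2 had 0 of 21, 9 and 1. Some named genes with RNA higher in T-bet- had called windows only in the opposite direction. Among them were Ms4a7, Ccl22, Pilra, Nr1h3, Fcgrt, Ppt1, Prdm1 and Adgre4. Adam8, with RNA higher in T-bet+, had 1 window more open in T-bet+ and 2 more open in T-bet- of 11.

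The windows shown here had the smallest adjusted p at 4 leading genes of each direction, and are given in GRCm38 (mm10) coordinates on the plus strand. Capitals mark matches on either strand to AGGTGTGA (T-box), TGTGGTT (Runx), TGGGAA (RBPJ), GAGGAAGT (PU.1), TGANTCA (AP-1), TTGCNNAA (C/EBP) or the IRF motif. No match overlapped another.
Dtx1, intron, 14831 bases after the start, chr5:120697022-120697171: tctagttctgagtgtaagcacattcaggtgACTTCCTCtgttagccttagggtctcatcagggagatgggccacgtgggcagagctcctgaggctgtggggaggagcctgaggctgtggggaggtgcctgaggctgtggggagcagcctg
Ppp1r14a, 1742 bases before the start, chr7:29287492-29287641: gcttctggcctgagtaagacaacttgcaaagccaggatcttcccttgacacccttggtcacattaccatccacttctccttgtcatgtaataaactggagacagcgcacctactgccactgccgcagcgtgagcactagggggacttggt
Ncald, intron, 332392 bases after the start, chr15:37460104-37460253: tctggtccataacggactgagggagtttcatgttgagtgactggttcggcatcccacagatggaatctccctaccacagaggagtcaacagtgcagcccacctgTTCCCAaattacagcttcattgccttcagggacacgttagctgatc
Cdh17, intron, 5322 bases after the start, chr4:11763395-11763544: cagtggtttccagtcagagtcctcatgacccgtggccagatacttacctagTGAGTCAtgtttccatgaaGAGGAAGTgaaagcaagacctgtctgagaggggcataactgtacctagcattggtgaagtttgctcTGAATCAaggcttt
Sh3pxd2b, intron, 1996 bases after the start, chr11:32349742-32349891: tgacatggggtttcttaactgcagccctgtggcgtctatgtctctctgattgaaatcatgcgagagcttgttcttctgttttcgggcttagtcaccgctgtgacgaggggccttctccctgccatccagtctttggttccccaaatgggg
Msr1, 7489 bases before the start, chr8:39650088-39650237: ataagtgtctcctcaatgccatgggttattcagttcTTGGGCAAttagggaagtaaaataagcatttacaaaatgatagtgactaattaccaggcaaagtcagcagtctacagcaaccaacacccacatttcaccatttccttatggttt
Clec5a, 9177 bases before the start, chr6:40594924-40595073: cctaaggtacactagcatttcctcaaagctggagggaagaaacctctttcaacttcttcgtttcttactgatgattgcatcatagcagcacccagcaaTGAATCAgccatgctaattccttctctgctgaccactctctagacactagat
Lyz1, 873 bases before the start, chr10:117293667-117293816: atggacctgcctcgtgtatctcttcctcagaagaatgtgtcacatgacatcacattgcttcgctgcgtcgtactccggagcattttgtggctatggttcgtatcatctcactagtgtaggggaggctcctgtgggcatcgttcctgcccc

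The intronic Dtx1 window, with a PU.1 match, held 339 and 238 normalized reads in T-bet+ and 8.68 and 8.91 in T-bet- ATAC-seq libraries (log2 fold change 5.01 ± 0.32, adjusted p = 4.41e-20). The Cdh17 window, with 1 PU.1 and 2 AP-1 matches, held 299.7 and 330.4 against 87.9 and 88.2 (1.84 ± 0.20, adjusted p = 5.26e-11). The window before Ppp1r14a, with no match, held 193 and 135 against 14.1 and 13.4 (3.57 ± 0.31, adjusted p = 3.65e-14). Both T-bet+ libraries were above both T-bet- libraries at each. The Ncald window, with an RBPJ match, held 84.3 and 95.7 against 6.51 and 5.35 (3.91 ± 0.41, adjusted p = 4.53e-11). The Sh3pxd2b window held 60.3 and 69.96 against 285 and 344 (-2.27 ± 0.20, adjusted p = 3.64e-14). The Msr1 window, with a C/EBP match, held 22 and 12 against 90.1 and 115 (-2.59 ± 0.34, adjusted p = 1.86e-08). Both T-bet- libraries were above both T-bet+ libraries at the last 2. The Clec5a window, with an AP-1 match, held 71.8 and 69 against 162 and 176 (-1.26 ± 0.22, adjusted p = 2.1e-05), and the shallow Lyz1 window 8.62 and 2.76 against 38 and 18.7 (-2.27 ± 0.47, adjusted p = 0.000279).

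A T-box match occurred in 0.709%, 2.48% and 0.204% of all windows tested, of those more open in T-bet+ and of those more open in T-bet-. In the same order the C/EBP letters occurred in 5.89%, 5.04% and 12.8%, and AP-1 in 8.16%, 12.5% and 20.7%. PU.1 occurred in 5.81%, 11.7% and 8.5%, and Runx in 5.35%, 11.8% and 6.21%. RBPJ occurred in 13.7%, 14.03% and 15.03%, and IRF in 2.45%, 1.78% and 3.82%. A match describes the letters only and is not evidence that a factor binds.

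**Figure D2:**
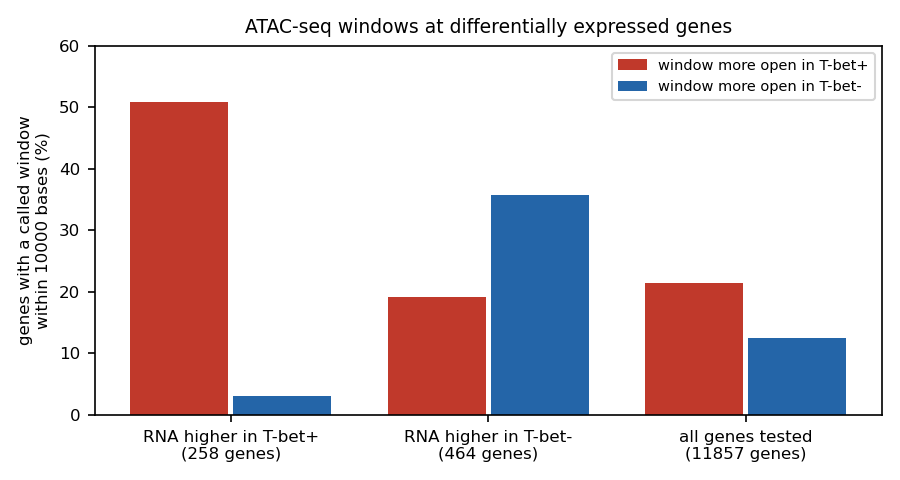
Percentage of genes with at least 1 ATAC-seq window more open in T-bet+ (red) or T-bet- (blue) cDC2s within 10000 bases, for genes whose RNA was higher in T-bet+, genes whose RNA was higher in T-bet-, and all genes tested. The red bar of the first group (50.8%) and the blue bar of the second (35.8%) lie above the bars over all genes (21.5% and 12.5%).

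Genes were then grouped by function in 39 lists. Each count stands against 1.95% of all genes higher in T-bet+ and 3.44% higher in T-bet-, and medians are of the log2 fold change of all members tested. Of the 280 and 494 genes, 81 and 191 were in a list, so most genes that differed are in none. The lists were chosen with earlier results of these data known, so the shares over all genes are a background and not a test. With 1 library left out, 98, 95, 118, 164, 154 and 583 of all genes were higher in T-bet+. The omissions are T-bet+ replicates 1, 2 and 3 and then T-bet- replicates 1, 2 and 3. In that order 228, 212, 242, 282, 301 and 674 of all genes were higher in T-bet-. List counts with a library left out stand against these. For a list with at least 4 genes in a direction whose count then moved over 1.5 times, the counts without T-bet+ replicates 1, 2 and 3 and then without T-bet- replicates 1, 2 and 3 are given in that order. The Notch pathway list had 2 higher in T-bet+ and 1 higher in T-bet- of 31 tested (median -0.26). Esam, an adhesion molecule of Notch-dependent splenic cDC2s, rose with Dtx1 in T-bet+, at 3084, 2610.5 and 3631 against 1067, 1143 and 1121 (log2 fold change 1.48 ± 0.24, adjusted p = 0.00787). Dtx4, a relative of Dtx1, was higher in T-bet-, at 76.6, 47.8 and 72.7 against 120.4, 215 and 144 (log2 fold change -1.28 ± 0.32, adjusted p = 0.0494). The T-box and Runx list had 1 higher in T-bet+ and 0 higher in T-bet- of 5 tested (median 0.71), which was Tbx21. Immediate early and orphan receptor genes had 2 higher in T-bet+ and 0 higher in T-bet- of 25 tested (median 0.56). Egr3 was at 1682, 1401 and 1525 against 349.7, 434 and 220.5 (log2 fold change 2.2 ± 0.29, adjusted p = 0.00255), and Nr4a2 at 23280.2, 21964 and 13481 against 2142, 2937 and 6249 (log2 fold change 2.37 ± 0.58, adjusted p = 0.0448). No T-bet- library reached the T-bet+ range for these. Nr4a1 (0.39 ± 0.23), Fos (0.20 ± 0.15) and Atf3 (0.39 ± 0.28) did not pass (adjusted p = 0.401, 0.538 and 0.521). Dtx4 and Nr4a2 lost the call without any 1 T-bet+ library or T-bet- replicate 1 or 2 (highest adjusted p 0.147 to 0.184). Tbx21 lost the call without any 1 T-bet+ library or T-bet- replicate 2 (adjusted p up to 0.0723). Dtx4 and Tbx21 missed the threshold with library class as a term (adjusted p = 0.102 and 0.0525). Nr4a2 moved to 1.38 on the log2 scale with the class term.

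Other lineage factors had 5 higher in T-bet+ and 2 higher in T-bet- of 35 tested (median 0.41, with 3, 3, 2, 3, 4 and 9 higher in T-bet+ when a library was left out). Tcf7, a partner of beta-catenin, was at 440.2, 435 and 539 against 39.7, 80.3 and 83.6 (log2 fold change 2.79 ± 0.46, adjusted p = 0.00853). The Polycomb subunit Phc1 was at 1121, 1393 and 1016 against 223, 124 and 289.8 (log2 fold change 2.47 ± 0.34, adjusted p = 0.00329). Dmrtb1 was at 146, 134 and 238 against 13.6, 29.2 and 17.8, Mxd3, of the Myc network, at 335, 408 and 307 against 61.3, 112 and 35.6, and Foxo3 at 882, 535 and 552 against 255, 288 and 347. T-bet+ libraries were above T-bet- libraries for all of them. Id3, which blocks E proteins, was at 204, 137 and 189.7 against 1696, 2475 and 1485 (log2 fold change -3.41 ± 0.34, adjusted p = 0.000663). Prdm1, which encodes Blimp-1, was at 443, 549 and 326 against 1492, 995 and 1222 (log2 fold change -1.49 ± 0.34, adjusted p = 0.0335). Both were higher in every T-bet- library. Spi1, which encodes PU.1, and Id2 did not pass (1.57 ± 0.78 and 0.41 ± 0.23, adjusted p = 0.325 and 0.388). Foxo3 and Prdm1 lost the call without any 1 T-bet+ library or T-bet- replicate 1 or 2 (highest adjusted p 0.138 to 0.191). Mxd3 lost the call without any 1 T-bet+ library or T-bet- replicate 1 (adjusted p up to 0.0735). Dmrtb1 lost the call without T-bet+ replicate 3 (adjusted p up to 0.0592). Dmrtb1, Foxo3, Mxd3 and Prdm1 missed the threshold with library class as a term (adjusted p = 0.0666, 0.134, 0.052 and 0.0714).

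Nuclear receptors had 0 higher in T-bet+ and 4 higher in T-bet- of 20 tested (median -0.66). Nr1h3, the liver X receptor alpha, was at 128, 121 and 172 against 2001, 1497 and 1314 (log2 fold change -3.51 ± 0.44, adjusted p = 0.00215). Pparg, a receptor that promotes lipid storage, was at 20.6, 32.8 and 28.5 against 189.6, 168 and 304 (log2 fold change -3.01 ± 0.49, adjusted p = 0.00801). Rxra, the partner of both, was at 87.9, 60.2 and 40.3 against 297, 229.8 and 266 (log2 fold change -2.07 ± 0.32, adjusted p = 0.00676). T-bet- libraries were several times above the T-bet+ libraries for each. Irf and Stat factors had 0 higher in T-bet+ and 1 higher in T-bet- of 16 tested (median -0.04). Irf8, the factor of cDC1 development, was at 1495, 1194 and 1804 against 3604, 6028 and 10538 (log2 fold change -2.17 ± 0.37, adjusted p = 0.00979), and averaged 83201 in cDC1s. Stat6 did not pass (-0.51 ± 0.22). The C/EBP, Klf, Maf and Nfi list had 0 higher in T-bet+ and 1 higher in T-bet- of 20 tested (median -0.82). The member that passed was Mitf, a factor of lysosome genes, at 23.4, 14.2 and 14.7 against 149.9, 96.1 and 90.7 (log2 fold change -2.68 ± 0.45, adjusted p = 0.0091). Klf4 did not pass, at 2701, 3368 and 4185 against 1764, 4319.5 and 2373 (adjusted p = 0.755). In that list 10 members were higher in every T-bet- library (13.9% of all genes) and 0 in every T-bet+ library (13.1% of all genes), and 5 passed with library class as a term, all higher in T-bet-. Irf8 lost the call without T-bet+ replicate 1 or 2 (adjusted p up to 0.0572). Mitf lost the call without T-bet+ replicate 2 (adjusted p up to 0.054). Pparg moved to -3.69 on the log2 scale with the class term.

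**Figure D3:**
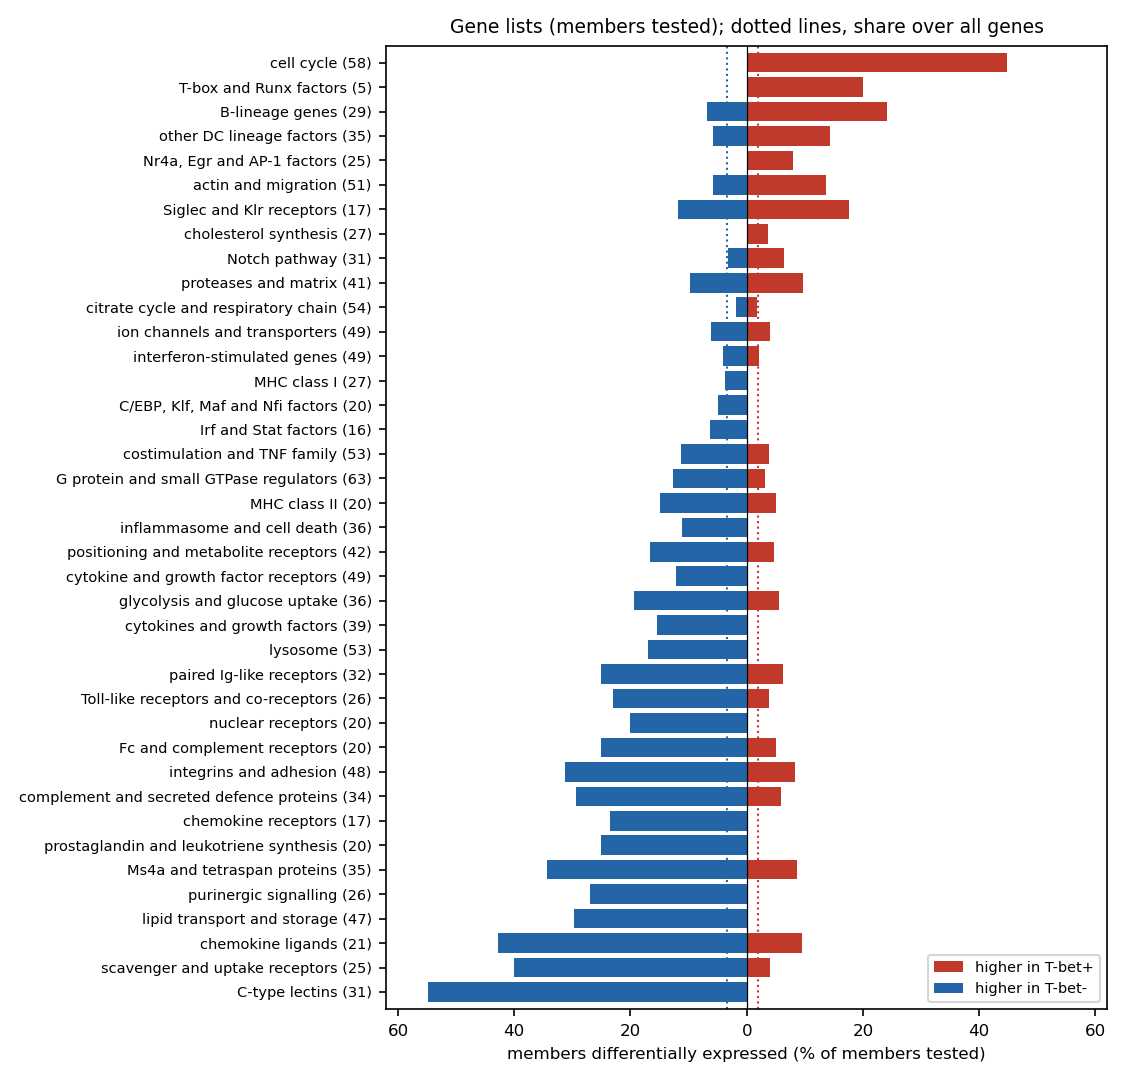
Share of the tested members of each of 39 gene lists (number tested in brackets) that were higher in T-bet+ (red, to the right) or in T-bet- (blue, to the left) cDC2s, ordered by the difference of the shares. The dotted lines mark the shares over all genes, 1.95% and 3.44%, and C-type lectins (17 of 31) and cell cycle genes (26 of 58) lie at the ends.

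Among surface receptors, C-type lectins had 0 higher in T-bet+ and 17 higher in T-bet- of 31 tested (median -2.77). Every T-bet- library was above every T-bet+ library for 22 of them, against 13.9% of all genes. Leaving out T-bet+ replicate 2 or 3 gave 11 lectins higher in T-bet-, the fewest of 6 omissions. Clec12a, an inhibitory receptor for uric acid crystals, was at 237, 156 and 143 against 5721, 4849 and 4539 (log2 fold change -4.82 ± 0.27, adjusted p = 4.43e-05). Cd209d, a relative of DC-SIGN, was at 20.6, 25.7 and 17.7 against 522, 341 and 309 (log2 fold change -4.19 ± 0.38, adjusted p = 0.000449). Clec4n, which encodes Dectin-2, and Clec4a4, which encodes the cDC2 antigen 33D1, did not pass (-0.90 ± 0.37 and 1.1 ± 0.49, adjusted p = 0.234 and 0.275). Fc and complement receptors had 1 higher in T-bet+ and 5 higher in T-bet- of 20 tested (median -0.93). Fcgr3, an activating receptor for IgG, was at 109, 127 and 160.2 against 2858, 2212 and 1943 (log2 fold change -4.14 ± 0.34, adjusted p = 0.00024). Fcgr2b, its inhibitory relative, was at 419, 376 and 347 against 6338, 4966 and 4124 (log2 fold change -3.76 ± 0.23, adjusted p = 4.43e-05). T-bet- libraries were far above T-bet+ libraries for both. Fcgr1, which encodes the CD64 that was gated out as protein, was at 19.6, 9.74 and 15.7 against 185, 187 and 126, and the neonatal Fc receptor Fcgrt at 3038, 2101 and 2447 against 6429.8, 7022 and 5372. The shared signalling chain Fcer1g did not pass (-0.53 ± 0.24). Fcgr1 lost the call without any 1 T-bet+ library or T-bet- replicate 1 or 2 (adjusted p up to 0.176). Fcgr1 missed the threshold with library class as a term (adjusted p = 0.0811).

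Siglec and Klr receptors had 3 higher in T-bet+ and 2 higher in T-bet- of 17 tested (median -0.91). Cd22, a sialic acid receptor that restrains B cells, was at 5016, 6158 and 6371 against 2741, 1868 and 2873 (log2 fold change 1.23 ± 0.26, adjusted p = 0.0249). Siglecg, with a like role, was at 6765, 5790.5 and 6139 against 3051, 3219 and 2930.3 (log2 fold change 1.02 ± 0.19, adjusted p = 0.0161). Klrd1, which encodes CD94, was at 2934, 2581 and 2781 against 1556, 1667 and 1397 (log2 fold change 0.84 ± 0.19, adjusted p = 0.0309). No T-bet- library reached a T-bet+ library for them. Klrk1, which encodes NKG2D, was higher in T-bet-, at 182, 153 and 81.6 against 3096, 1481 and 2001 (log2 fold change -3.98 ± 0.39, adjusted p = 0.000632). Paired Ig-like receptors had 2 higher in T-bet+ and 8 higher in T-bet- of 32 tested (median -0.75, with 4, 5, 5, 6, 5 and 13 higher in T-bet- when a library was left out). Cd7 was at 13144, 12578 and 14672 against 4184, 4801 and 3425 (log2 fold change 1.7 ± 0.24, adjusted p = 0.00347), and the inhibitory Cd300lf at 5057, 4775 and 5090.1 against 2104, 1825 and 1909 (log2 fold change 1.35 ± 0.20, adjusted p = 0.00492). Both were higher in every T-bet+ library. Pilra, an inhibitory receptor, was at 171, 143 and 162 against 2366, 2083 and 1482 (log2 fold change -3.64 ± 0.29, adjusted p = 0.00024). Trem1, which amplifies inflammation, was at 239, 269 and 208 against 1872, 1097 and 965 (log2 fold change -2.46 ± 0.41, adjusted p = 0.00902). Lilra5, Lilrb4a, Cd300lg and Cd300e were also higher in T-bet- (-4.65, -3.38, -2.86 and -2.35). Pirb, an inhibitory receptor for MHC class I, did not pass (-0.78 ± 0.21). Cd22, Cd300lg and Siglecg lost the call without any 1 T-bet+ library or T-bet- replicate 1 or 2 (highest adjusted p 0.0851 to 0.137). Klrd1 lost the call without any 1 library (adjusted p up to 0.141). Lilra5 lost the call without T-bet+ replicate 1 or 2 or T-bet- replicate 1 or 2 (adjusted p up to 0.108). Trem1 lost the call without T-bet+ replicate 1 or 3 (adjusted p up to 0.0525).

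Scavenger and uptake receptors had 1 higher in T-bet+ and 10 higher in T-bet- of 25 tested (median -1.36, with 6, 6, 4, 6, 8 and 9 higher in T-bet- when a library was left out). Axl, which binds Gas6 on dying cells, was at 229, 135 and 369.6 against 4005, 2643 and 3527 (log2 fold change -3.79 ± 0.40, adjusted p = 0.000844). Cd36, a fatty acid and lipoprotein receptor, was at 169, 145 and 54.1 against 2669, 797 and 1536 (log2 fold change -3.76 ± 0.54, adjusted p = 0.00441). Lrp1, the alpha-2-macroglobulin receptor, was at 532, 569 and 503 against 4735, 4382 and 3684 (log2 fold change -3.00 ± 0.33, adjusted p = 0.00103). All 3 were higher in every T-bet- library. Mertk, a relative of Axl, was at 9.35, 0 and 3.93 against 143, 59.6 and 153, and Itgb5, which pairs with the integrin alpha V, at 22.4, 5.31 and 23.6 against 188, 181 and 216. Mertk lost the call without any 1 T-bet+ library or T-bet- replicate 1 or 3 (adjusted p up to 0.123).

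Integrins and adhesion genes had 4 higher in T-bet+ and 15 higher in T-bet- of 48 tested (median -0.62, with 8, 8, 11, 13, 15 and 15 higher in T-bet- when a library was left out). Beside Cdh17 and Esam, Cdhr3, a cadherin-like receptor, was at 329, 446 and 613 against 54.5, 42.6 and 62.2 (log2 fold change 3.12 ± 0.50, adjusted p = 0.00771). Ctnnd2, a delta catenin, was at 1414, 1304 and 1397 against 209, 243 and 280.0 (log2 fold change 2.49 ± 0.26, adjusted p = 0.000843). Both were higher in every T-bet+ library. The semaphorin receptor Plxna1, Plxdc2 and Cadm1 were higher in T-bet- (-4.19, -3.7 and -3.00), and Cadm1 averaged 14380.4 in cDC1s. Plxna1 lost the call without T-bet+ replicate 1 (adjusted p up to 0.0551). Cadm1 lost the call without T-bet+ replicate 1 or 2 (adjusted p up to 0.127). Plxdc2 lost the call without T-bet+ replicate 2 (adjusted p up to 0.0655). Cadm1 moved to -3.71 on the log2 scale with the class term.

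Chemokine receptors had 0 higher in T-bet+ and 4 higher in T-bet- of 17 tested (median -1.10, with 2, 2, 2, 2, 2 and 5 higher in T-bet- when a library was left out). Beside Ccr2, the fractalkine receptor Cx3cr1 was at 197, 57.6 and 197 against 6099, 3772 and 6117 (log2 fold change -5.15 ± 0.51, adjusted p = 0.000632). Cxcr4, which retains cells in bone marrow, was at 1860.0, 2339 and 2368 against 4899, 5115 and 3223. Every T-bet- library was above the T-bet+ libraries. Positioning and metabolite receptors had 2 higher in T-bet+ and 7 higher in T-bet- of 42 tested (median -0.73, with 2, 1, 1, 5, 4 and 8 higher in T-bet- when a library was left out). Gpr4, a proton-sensing receptor, was at 4813, 3515 and 3099.9 against 333, 235 and 235 (log2 fold change 3.83 ± 0.26, adjusted p = 7.9e-05). Gpr55, a lysophosphatidylinositol receptor, was at 218, 221 and 197 against 61.3, 43.8 and 61.3 (log2 fold change 1.93 ± 0.32, adjusted p = 0.0087). Both were higher in every T-bet+ library. Adgre4, an adhesion receptor of macrophages, was higher in T-bet-, at 409, 544 and 316 against 17977, 7977 and 12986 (log2 fold change -4.94 ± 0.40, adjusted p = 0.00024). The sphingosine-1-phosphate receptor S1pr2 was at 112, 106 and 51.1 against 299, 368 and 499.6, and the platelet-activating factor receptor Ptafr at 4045, 3197 and 2821 against 9595, 7498 and 6317. The hydroxycarboxylic acid receptor Hcar2 was at 1093, 1214 and 1163 against 2644, 3355 and 2163. Cxcr4 and Hcar2 lost the call without any 1 T-bet+ library or T-bet- replicate 1 or 2 (highest adjusted p 0.163 to 0.176). S1pr2 lost the call without any 1 T-bet+ library or T-bet- replicate 2 (adjusted p up to 0.067). Ptafr lost the call without T-bet+ replicate 2 or 3 (adjusted p up to 0.0695). Cxcr4 and Hcar2 missed the threshold with library class as a term (adjusted p = 0.131 and 0.114).

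Toll-like receptors and co-receptors had 1 higher in T-bet+ and 6 higher in T-bet- of 26 tested (median -0.73, with 2, 3, 3, 3, 3 and 7 higher in T-bet- when a library was left out). Tlr8 was at 17.8, 27.5 and 0 against 673, 317 and 663 (log2 fold change -5.17 ± 1.17, adjusted p = 0.0335). The profilin receptors Tlr11 and Tlr12 were at 197, 299 and 394 against 1979, 955 and 1686 (log2 fold change -2.38 ± 0.38, adjusted p = 0.00785) and 34.6, 72.6 and 4.91 against 936, 593 and 638 (log2 fold change -4.26 ± 0.70, adjusted p = 0.00831). Cd14, the lipopolysaccharide co-receptor, was at 1018, 780.4 and 888 against 9526, 10109 and 5057 (log2 fold change -3.2 ± 0.35, adjusted p = 0.000955). T-bet- libraries were above T-bet+ libraries for all of these. Tlr3, which senses double-stranded RNA, and its adaptor Ticam1 followed at smaller folds (-1.78 and -1.08). cDC1s averaged 9821, 5569 and 7385 for Tlr11, Tlr12 and Tlr3, above both cDC2 subsets. The member higher in T-bet+ was Cd180, a relative of Tlr4 best known on B cells, at 893, 989 and 850.2 against 477, 316 and 465 (log2 fold change 1.12 ± 0.27, adjusted p = 0.0471). Tlr2 and the adaptor Myd88 did not pass (-0.97 ± 0.29 and -0.34 ± 0.16). Ticam1, Tlr3 and Tlr8 lost the call without any 1 T-bet+ library or T-bet- replicate 1 or 2 (highest adjusted p 0.0859 to 0.159). Tlr12 lost the call without T-bet+ replicate 1 (adjusted p up to 0.0523). Cd180 lost the call without any 1 library (adjusted p up to 0.168). Ticam1 missed the threshold with library class as a term (adjusted p = 0.127).

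Cytokine and growth factor receptors had 0 higher in T-bet+ and 6 higher in T-bet- of 49 tested (median -0.55, with 3, 2, 2, 4, 4 and 7 higher in T-bet- when a library was left out). Csf1r, which macrophages need to survive, was at 6216, 4865 and 5609 against 71812, 44474 and 56952 (log2 fold change -3.38 ± 0.25, adjusted p = 0.000139). Csf3r, the receptor of granulocytes for G-CSF, was at 215, 208 and 267 against 3162, 2539 and 3007 (log2 fold change -3.66 ± 0.32, adjusted p = 0.00038). Csf2rb and Csf2rb2, beta chains for GM-CSF and interleukin-3, were at 6515, 6113 and 7616 against 16382, 13598 and 12869.7 and 411, 306 and 497 against 3604, 2649.8 and 1434. All were higher in every T-bet- library. Ifnar1, a chain of the type I interferon receptor, was at 2344, 2618 and 2355 against 5699.7, 4682 and 6078 (log2 fold change -1.17 ± 0.21, adjusted p = 0.0121). Il1rap, a chain of the interleukin-1 receptor, was at 29.9, 15.9 and 15.7 against 391, 122 and 421 (log2 fold change -3.91 ± 0.65, adjusted p = 0.0091). Csf2rb and Csf2rb2 lost the call without any 1 T-bet+ library or T-bet- replicate 1 or 2 (highest adjusted p 0.0911 to 0.0911). Ifnar1 lost the call without any 1 T-bet+ library (adjusted p up to 0.0678). Il1rap lost the call without T-bet+ replicate 2 or 3 (adjusted p up to 0.0571). Csf2rb2 moved to -1.75 on the log2 scale with the class term.

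Costimulation and TNF family genes had 2 higher in T-bet+ and 6 higher in T-bet- of 53 tested (median -0.18, with 2, 3, 3, 3, 4 and 8 higher in T-bet- when a library was left out). Beside Fasl, Cd83 was higher in T-bet+, at 227064, 237117 and 195837 against 111393, 135819 and 142607 (log2 fold change 0.76 ± 0.16, adjusted p = 0.0249). Tnfsf13b, the B cell survival factor BAFF, was higher in T-bet-, at 10.3, 37.2 and 24.6 against 239.6, 315 and 169.8 (log2 fold change -3.32 ± 0.51, adjusted p = 0.00618). The 4-1BB ligand Tnfsf9 was at 1249, 1170.2 and 1057 against 2560.3, 3570.4 and 2252. No library of either subset overlapped the other for these. Slamf8 was at 4324, 4240.3 and 4763 against 10313, 9184 and 9100.1 (log2 fold change -1.1 ± 0.17, adjusted p = 0.00564), and the checkpoint Vsir at 6256, 5089 and 5195 against 9249, 9378 and 9229, both higher in T-bet-. Cd83, Fasl, Tnfsf9 and Vsir lost the call without any 1 T-bet+ library or T-bet- replicate 1 or 2 (highest adjusted p 0.0878 to 0.181). Cd83, Fasl, Tnfsf9 and Vsir missed the threshold with library class as a term (adjusted p = 0.081, 0.0602, 0.0504 and 0.131).

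Ms4a and tetraspan genes had 3 higher in T-bet+ and 12 higher in T-bet- of 35 tested (median -0.60, with 4, 4, 4, 4, 5 and 13 higher in T-bet- when a library was left out). Ms4a6d was at 39.3, 39 and 11.8 against 1263, 922 and 882 (log2 fold change -5.08 ± 0.65, adjusted p = 0.00228), and Ms4a7 at 248, 219.7 and 291 against 1955, 1817 and 1427 (log2 fold change -2.78 ± 0.26, adjusted p = 0.00049). The tetraspanin Tspan32 was at 37.4, 7.97 and 29.5 against 322, 319.8 and 212 (log2 fold change -3.51 ± 0.55, adjusted p = 0.00664), and Cd81 at 5176, 3551 and 4252 against 14798, 13160.4 and 10562 (log2 fold change -1.57 ± 0.20, adjusted p = 0.00257). Every T-bet- library was above the T-bet+ range. Ms4a1, which encodes CD20, was at 703, 539 and 757 against 59, 157 and 125 (log2 fold change 2.55 ± 0.42, adjusted p = 0.00832). Ifitm1, a membrane protein that restricts viruses, was at 2929, 2409 and 2418 against 412, 629.9 and 229 (log2 fold change 2.61 ± 0.39, adjusted p = 0.00508), and Tspan2 at 951, 1335 and 1248 against 321, 265 and 498 (log2 fold change 1.7 ± 0.31, adjusted p = 0.0133). These were higher in every T-bet+ library. The pan-leukocyte tetraspanin Cd53 did not pass (-0.28 ± 0.19). Tspan2 lost the call without T-bet+ replicate 2 or 3 or T-bet- replicate 1 or 2 (adjusted p up to 0.0646).

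Secreted factors came next. Chemokine ligands had 2 higher in T-bet+ and 9 higher in T-bet- of 21 tested (median -1.64), and 7 passed with library class as a term, all higher in T-bet-. Ccl3, which draws T cells and monocytes, was at 10266, 8430.2 and 10541 against 4787, 4187 and 3272 (log2 fold change 1.26 ± 0.24, adjusted p = 0.0179). Ccl4, with a like role, was at 26962, 19363 and 25057 against 10639, 11956 and 6177 (log2 fold change 1.31 ± 0.29, adjusted p = 0.03). Both were higher in every T-bet+ library. Ccl9 was at 613, 516 and 699.8 against 10681, 10411 and 8205 (log2 fold change -4.00 ± 0.26, adjusted p = 7.14e-05), and Ccl6 at 1415, 1085 and 1059.5 against 9386, 7867 and 6566 (log2 fold change -2.74 ± 0.22, adjusted p = 0.00024). Ccl22, which draws regulatory T cells, was at 342, 299 and 306 against 2175, 1791 and 1454 (log2 fold change -2.52 ± 0.25, adjusted p = 0.000698). All of them were higher in every T-bet- library. Cxcl9, induced by interferon-gamma, was at 100.01, 174 and 107 against 1375, 1143 and 1243 (log2 fold change -3.3 ± 0.27, adjusted p = 0.00024). Ccl2, which draws monocytes, was at 3.74, 8.86 and 13.8 against 163, 184 and 57.8 (log2 fold change -3.92 ± 0.58, adjusted p = 0.00492), and Cxcl2, which draws neutrophils, at 122, 181 and 143 against 564, 619 and 232. Ccl5 did not pass (0.74 ± 0.38, adjusted p = 0.34). Ccl4 lost the call without any 1 T-bet+ library or T-bet- replicate 1 (adjusted p up to 0.114). Cxcl2 lost the call without any 1 T-bet+ library or T-bet- replicate 1 or 2 (adjusted p up to 0.156). Ccl3 lost the call without any 1 T-bet+ library or T-bet- replicate 2 (adjusted p up to 0.0792). Ccl3, Ccl4 and Cxcl2 missed the threshold with library class as a term (adjusted p = 0.0659, 0.0692 and 0.213). Ccl2 moved to -3.32 on the log2 scale with the class term.

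Cytokines and growth factors had 0 higher in T-bet+ and 6 higher in T-bet- of 39 tested (median -0.46, with 3, 4, 4, 4, 3 and 7 higher in T-bet- when a library was left out). Il1rn, the antagonist of interleukin-1, was at 600.1, 765 and 658 against 10221, 7698 and 5951 (log2 fold change -3.56 ± 0.32, adjusted p = 0.00038). Osm, oncostatin M, was at 419.7, 522 and 478 against 2744, 3006 and 2119 (log2 fold change -2.47 ± 0.31, adjusted p = 0.0021), and Tgfbi at 8849.6, 8284 and 8574 against 19366, 20401 and 22726 (log2 fold change -1.28 ± 0.15, adjusted p = 0.00125). All 3 were higher in every T-bet- library. Gdf3 was at 2.8, 11.5 and 0 against 84, 111 and 147, Grn, progranulin, at 10475, 8710.1 and 9164 against 18436, 16718 and 14556, and Il27 at 31.8, 34.5 and 21.6 against 133, 107 and 118. Il12b, the shared chain of interleukins 12 and 23, did not pass, at 2091, 1588 and 1603 against 3669.6, 2323 and 2433 (adjusted p = 0.144). Grn and Il27 lost the call without any 1 T-bet+ library or T-bet- replicate 1 or 2 (highest adjusted p 0.1 to 0.125). Gdf3 lost the call without T-bet+ replicate 1 or T-bet- replicate 2 (adjusted p up to 0.108). Grn and Il27 missed the threshold with library class as a term (adjusted p = 0.0897 and 0.0691).

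Complement and secreted defence genes had 2 higher in T-bet+ and 10 higher in T-bet- of 34 tested (median -0.46). Lyz2, the myeloid lysozyme, was at 5906, 4071 and 5451 against 250233, 207621 and 159509 (log2 fold change -5.32 ± 0.30, adjusted p = 4.43e-05). Complement C3 was at 164, 80.6 and 154 against 5118, 2121 and 2275 (log2 fold change -4.58 ± 0.46, adjusted p = 0.000699). The C1q chains C1qa and C1qb were at 433, 268 and 439 against 4848, 4768 and 3204 and 746, 454 and 759.7 against 6475, 7153 and 5028 (-3.49 ± 0.30 and -3.25 ± 0.27). T-bet- libraries were above T-bet+ libraries for all of these. Pglyrp1, which binds peptidoglycan, was higher in T-bet+, at 3763, 3146 and 3985 against 1017, 1246 and 738 (log2 fold change 1.86 ± 0.36, adjusted p = 0.0179). Its relative Pglyrp2 was at 1028, 885 and 883 against 54.5, 77.8 and 79.1 (log2 fold change 3.72 ± 0.83, adjusted p = 0.0322), also higher in T-bet+. Pglyrp1 lost the call without any 1 T-bet+ library or T-bet- replicate 1 (adjusted p up to 0.0685). Pglyrp2 lost the call without any 1 library (adjusted p up to 0.108).

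Proteases and matrix genes had 4 higher in T-bet+ and 4 higher in T-bet- of 41 tested (median -0.72, with 1, 2, 1, 3, 3 and 4 higher in T-bet+ when a library was left out, with 3, 2, 2, 3, 2 and 6 higher in T-bet- when a library was left out). Beside Mmp9, the membrane protease Adam8 was at 9625, 9548 and 10489.9 against 6029, 4402 and 4875, and Adam23 at 3107, 2663 and 3244 against 936, 1255 and 824. The serpin Serpinb6b was at 784, 759 and 717 against 391, 170.3 and 176. All T-bet+ libraries were above the T-bet- libraries. Ace, the angiotensin-converting enzyme, was at 106, 107 and 185 against 1222, 1647 and 4576 (log2 fold change -4.23 ± 0.53, adjusted p = 0.0021). Mmp14, which activates other metalloproteases, was at 143, 55.8 and 82.6 against 368, 685 and 2461 (log2 fold change -3.64 ± 0.86, adjusted p = 0.0398). Both varied among T-bet- libraries, with replicate 3 highest. Thbs1, thrombospondin 1, was at 637, 780.4 and 315 against 11362, 4659 and 3178 (log2 fold change -3.47 ± 0.56, adjusted p = 0.0078). F10, coagulation factor X, was at 14, 21.3 and 20.6 against 252, 157 and 91.6. The protease inhibitor Cst3 did not pass (-0.43 ± 0.25). Adam8 and Serpinb6b lost the call without any 1 T-bet+ library or T-bet- replicate 2 (highest adjusted p 0.0643 to 0.0724). F10 lost the call without any 1 T-bet+ library or T-bet- replicate 1 or 2 (adjusted p up to 0.115). Mmp14 lost the call without any 1 T-bet+ library or T-bet- replicate 2 or 3 (adjusted p up to 0.164). Adam23 lost the call without T-bet+ replicate 1 or 3 or T-bet- replicate 1 (adjusted p up to 0.0597). F10 missed the threshold with library class as a term (adjusted p = 0.0716). Ace, Mmp14 and Thbs1 moved to -4.82, -4.85 and -2.73 on the log2 scale with the class term.

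Among pathways, cell cycle genes had 26 higher in T-bet+ and 0 higher in T-bet- of 58 tested (median 1.60). Of them 43 were higher in every T-bet+ library and 2 in every T-bet- library, against 13.1% and 13.9% of all genes. Ccnb2, a mitotic cyclin, was at 1655, 2009.9 and 1339 against 225, 259 and 171 (log2 fold change 2.93 ± 0.34, adjusted p = 0.0014). Ube2c, which helps destroy mitotic cyclins, was at 1407, 1619 and 1142 against 236, 308 and 144 (log2 fold change 2.6 ± 0.35, adjusted p = 0.00272). Cdc20, an activator of the anaphase-promoting complex, was at 1244, 1257 and 1047 against 56.8, 126 and 116 (log2 fold change 3.56 ± 0.50, adjusted p = 0.00395). The highest T-bet- library stayed below the lowest T-bet+ library for each. Cdkn3, a cell cycle phosphatase, was at 171, 203 and 194 against 43.1, 34.1 and 10.7 (log2 fold change 2.7 ± 0.50, adjusted p = 0.015). Ccna2, the cyclin of S phase and mitosis, was at 1267, 1598 and 926 against 45.4, 102 and 172 (log2 fold change 3.56 ± 0.77, adjusted p = 0.0291). Cdkn2c, an inhibitor of Cdk4 and Cdk6, was at 961, 855 and 714 against 110.1, 65.7 and 236 (log2 fold change 2.61 ± 0.59, adjusted p = 0.034). These rose in T-bet+ as well. Ccnd2 (1.07 ± 0.27, adjusted p = 0.0548) and the inhibitor Cdkn1a (-1.29 ± 0.33, adjusted p = 0.0573) did not pass. Spleen cDC1s averaged 1193 for Ccnb2 and 738 for Ube2c. With library class as a term 25 members were higher in T-bet+ and 0 in T-bet-. With T-bet+ replicate 1, 2 or 3 left out 12, 9 and 15 were higher in T-bet+. With T-bet- replicate 1, 2 or 3 left out the counts were 21, 18 and 23. Ccna2 and Cdkn2c lost the call without any 1 T-bet+ library or T-bet- replicate 1 or 2 (highest adjusted p 0.0973 to 0.124). Cdkn3 lost the call without T-bet+ replicate 2 or 3 (adjusted p up to 0.0592). Ccna2 missed the threshold with library class as a term (adjusted p = 0.0562). Cdc20 and Cdkn2c moved to 2.87 and 1.66 on the log2 scale with the class term.

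**Figure D4:**
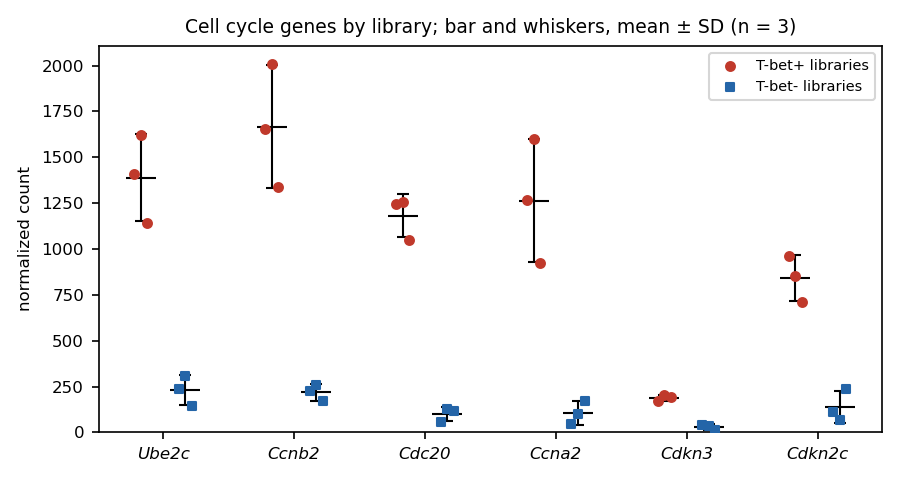
Normalized counts of 6 cell cycle genes in each library (red circles, T-bet+; blue squares, T-bet-), with the mean and SD of 3 libraries as bar and whiskers. For each gene the 3 T-bet+ libraries lie above the 3 T-bet- libraries.

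Lysosome genes had 0 higher in T-bet+ and 9 higher in T-bet- of 53 tested (median -0.55, with 5, 5, 5, 8, 7 and 14 higher in T-bet- when a library was left out), and 31 were higher in every T-bet- library (13.9% of all genes) and 1 in every T-bet+ library (13.1%). Psap, the precursor of the saposins that help degrade sphingolipids, was at 47687, 38433 and 43080.1 against 332030.0, 299500.0 and 278661 (log2 fold change -2.82 ± 0.17, adjusted p = 4.43e-05). Npc2, which moves cholesterol out of lysosomes, was at 3694, 3077 and 3462 against 11348, 12776 and 8224 (log2 fold change -1.66 ± 0.22, adjusted p = 0.00251). The phospholipase Pla2g15 was at 322, 268 and 400.0 against 2029, 1861 and 1483 (log2 fold change -2.44 ± 0.25, adjusted p = 0.000759). T-bet- libraries were above T-bet+ libraries for all 3. The thioesterase Ppt1, cathepsin S (Ctss), which trims the invariant chain, and the endopeptidase Lgmn were higher in T-bet- too (-1.31 ± 0.18, -1.08 ± 0.17 and -1.88 ± 0.33). Cathepsin C (Ctsc) did not pass (-0.84 ± 0.29). Lgmn lost the call without any 1 T-bet+ library (adjusted p up to 0.0629). Lgmn moved to -1.18 on the log2 scale with the class term.

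Lipid transport and storage had 0 higher in T-bet+ and 14 higher in T-bet- of 47 tested (median -0.68, with 10, 10, 9, 10, 12 and 13 higher in T-bet- when a library was left out). Lpl, lipoprotein lipase, was at 1.87, 22.1 and 16.7 against 422, 321 and 207 (log2 fold change -4.53 ± 0.74, adjusted p = 0.00832). Stard8, which holds a lipid-binding domain, was at 30.8, 6.2 and 2.95 against 322, 448 and 390.3 (log2 fold change -4.84 ± 0.71, adjusted p = 0.00464). The T-bet+ libraries were at a small fraction of the T-bet- level for both. Cholesterol synthesis had 1 higher in T-bet+ and 0 higher in T-bet- of 27 tested (median -0.37), which was its regulator Srebf2, at 13138, 13273 and 12835 against 7119, 7718 and 8837 (log2 fold change 0.73 ± 0.18, adjusted p = 0.0441). Srebf2 lost the call without any 1 T-bet+ library or T-bet- replicate 1 or 2 (adjusted p up to 0.155). Srebf2 missed the threshold with library class as a term (adjusted p = 0.0677). It also missed the threshold in DESeq2 and with the replicate block, where no member of the list was higher in T-bet+. The study, which tested with DESeq2, states that Srebf2 did not differ in expression between the mouse subsets.

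Glycolysis and glucose uptake had 2 higher in T-bet+ and 7 higher in T-bet- of 36 tested (median -0.41, with 2, 3, 4, 5, 5 and 12 higher in T-bet- when a library was left out). Hk3, a hexokinase, was at 87.9, 86.8 and 47.2 against 997, 538 and 654 (log2 fold change -3.3 ± 0.35, adjusted p = 0.000786). G6pdx, the entry enzyme of the pentose phosphate pathway, was at 2949, 2911 and 2543 against 9755, 7131 and 7189.6 (log2 fold change -1.52 ± 0.20, adjusted p = 0.00271). The aldolases Aldoc and Aldoa were at -2.06 ± 0.35 and -1.16 ± 0.20 on the log2 scale (adjusted p = 0.0091 and 0.00967). These were higher in every T-bet- library. The muscle-type enolase Eno3 was at 9011, 9064 and 10911 against 3638, 4199 and 3957 (log2 fold change 1.3 ± 0.30, adjusted p = 0.0361), and the glucose transporter Slc2a3 at 5235, 6066 and 5239 against 2722, 2055 and 3265 (log2 fold change 1.04 ± 0.25, adjusted p = 0.0452), both higher in T-bet+. Pkm and Eno1 did not pass (-0.47 ± 0.16 and -0.40 ± 0.19). The citrate cycle and respiratory chain had 1 higher in T-bet+ and 1 higher in T-bet- of 54 tested (median -0.06). Mdh2, the mitochondrial malate dehydrogenase, was higher in T-bet+, at 60341, 65554 and 59535 against 16141, 30555 and 13234 (log2 fold change 1.63 ± 0.29, adjusted p = 0.0118). The NADPH-producing Idh1 was higher in T-bet-, at 315, 485 and 519.9 against 2407, 1182 and 1824 (log2 fold change -2.04 ± 0.35, adjusted p = 0.0103). The ATP synthase subunit Atp5b did not pass (0.76 ± 0.31). Aldoc and Idh1 lost the call without T-bet+ replicate 1 (highest adjusted p 0.0508 to 0.0544). Aldoa lost the call without T-bet+ replicate 1 or 2 (adjusted p up to 0.059). Slc2a3 lost the call without any 1 T-bet+ library or T-bet- replicate 1 or 2 (adjusted p up to 0.17). Eno3 lost the call without any 1 library (adjusted p up to 0.126). Mdh2 lost the call without T-bet+ replicate 2 (adjusted p up to 0.052). Slc2a3 missed the threshold with library class as a term (adjusted p = 0.0677).

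MHC class II genes had 1 higher in T-bet+ and 3 higher in T-bet- of 20 tested (median -0.35). H2-Ob, which inhibits peptide loading by H2-DM, was higher in T-bet+, at 13701, 12752 and 12341 against 7397, 7146 and 7559 (log2 fold change 0.81 ± 0.16, adjusted p = 0.0181). H2-DMb1, a chain of H2-DM itself, was higher in T-bet-, at 10477, 9222 and 8837 against 22579, 24730.2 and 18174 (log2 fold change -1.2 ± 0.18, adjusted p = 0.00564). The invariant chain Cd74 and H2-Eb1 did not pass (-0.57 ± 0.20 and -0.46 ± 0.21, adjusted p = 0.16 and 0.274). MHC class I genes had 0 higher in T-bet+ and 1 higher in T-bet- of 27 tested (median 0.02), which was the chaperone Calr, at 10221, 12298 and 11372 against 24125, 24898 and 16676 (log2 fold change -0.95 ± 0.22, adjusted p = 0.0387). B2m and H2-K1 did not pass (-0.49 ± 0.18 and 0.36 ± 0.23). Interferon-stimulated genes had 1 higher in T-bet+ and 2 higher in T-bet- of 49 tested (median -0.30). Usp18, which damps interferon signalling, was higher in T-bet+, at 3915, 3506 and 4232 against 1995, 1645 and 1896 (log2 fold change 1.07 ± 0.20, adjusted p = 0.0143). The guanylate-binding proteins Gbp2 and Gbp3 were higher in T-bet- (-1.37 ± 0.25 and -1.82 ± 0.31). Slfn2 did not pass (-0.30 ± 0.27). Calr and H2-Ob lost the call without any 1 T-bet+ library or T-bet- replicate 1 or 2 (highest adjusted p 0.0933 to 0.154). Gbp3 lost the call without T-bet+ replicate 1 or 2 (adjusted p up to 0.0627). Gbp2 lost the call without any 1 T-bet+ library (adjusted p up to 0.0771). Usp18 lost the call without any 1 T-bet+ library or T-bet- replicate 2 (adjusted p up to 0.0722). Calr missed the threshold with library class as a term (adjusted p = 0.125).

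Inflammasome and cell death genes had 0 higher in T-bet+ and 4 higher in T-bet- of 36 tested (median -0.44, with 2, 2, 4, 3, 4 and 7 higher in T-bet- when a library was left out). Ripk3, the kinase of necroptosis, was at 715, 678 and 751 against 1951, 1992 and 1386 (log2 fold change -1.31 ± 0.22, adjusted p = 0.00981). Mlkl, its pore-forming effector, was at 24.3, 31 and 38.3 against 217, 148 and 105 (log2 fold change -2.32 ± 0.43, adjusted p = 0.0138). Naip2, a sensor of bacterial secretion systems, was at 148, 246 and 162 against 1127, 722 and 754 (log2 fold change -2.23 ± 0.31, adjusted p = 0.0038). These were higher in every T-bet- library, as was the ATP-gated channel P2rx7 (-1.99 ± 0.32). The pore protein Gsdmd did not pass (-0.62 ± 0.20). Ripk3 lost the call without T-bet+ replicate 1 or 2 (adjusted p up to 0.0602). Mlkl lost the call without T-bet+ replicate 1 or 2 or T-bet- replicate 1 (adjusted p up to 0.0724).

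Purinergic signalling had 0 higher in T-bet+ and 7 higher in T-bet- of 26 tested (median -0.36, with 4, 4, 6, 5, 6 and 8 higher in T-bet- when a library was left out). Beside P2ry13, the nucleotide receptor P2ry14 was at 43.9, 40.7 and 14.7 against 501, 229.8 and 276 (log2 fold change -3.33 ± 0.44, adjusted p = 0.00259). P2ry6 was at 352, 361 and 564 against 1627, 1865 and 1534 (log2 fold change -1.98 ± 0.32, adjusted p = 0.00817), and P2ry12 at 22.4, 22.1 and 0 against 381, 154 and 172 (log2 fold change -3.97 ± 0.93, adjusted p = 0.0394). The hydrolase Enpp4 was higher in T-bet- too (-2.24 ± 0.44). Prostaglandin and leukotriene synthesis had 0 higher in T-bet+ and 5 higher in T-bet- of 20 tested (median -0.27). Tbxas1, thromboxane synthase, was at 50.5, 51.4 and 64.9 against 1018, 865 and 714 (log2 fold change -3.96 ± 0.28, adjusted p = 0.000103). Hpgd, which inactivates prostaglandins, was at 1112, 1133 and 815 against 10957, 7647 and 8359.6 (log2 fold change -3.14 ± 0.23, adjusted p = 0.000139). Pla2g7, which inactivates platelet-activating factor, was at 1899, 1934 and 1350.4 against 13464, 10191 and 7389 (log2 fold change -2.58 ± 0.27, adjusted p = 0.000723). T-bet- libraries were above T-bet+ libraries for all of these, and for Pla2g2d (-2.34 ± 0.46). Alox5ap, needed for leukotrienes, did not pass (0.34 ± 0.23). Pla2g2d lost the call without any 1 T-bet+ library or T-bet- replicate 1 (adjusted p up to 0.0844). Enpp4 lost the call without T-bet+ replicate 1 or 2 or T-bet- replicate 1 (adjusted p up to 0.0918). P2ry12 lost the call without T-bet+ replicate 1 or 2 or T-bet- replicate 1 or 2 (adjusted p up to 0.119). P2ry6 lost the call without T-bet+ replicate 2 (adjusted p up to 0.052). P2ry12 and Pla2g2d missed the threshold with library class as a term (adjusted p = 0.059 and 0.0618).

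Actin and migration genes had 7 higher in T-bet+ and 3 higher in T-bet- of 51 tested (median 0.002, with 4, 3, 4, 6, 4 and 8 higher in T-bet+ when a library was left out). Arap2, an Arf regulator, was at 2671, 2573 and 2445 against 502, 519 and 295 (log2 fold change 2.55 ± 0.33, adjusted p = 0.00262). Actn1, an alpha-actinin, was at 494, 511 and 624 against 133, 182 and 108 (log2 fold change 1.94 ± 0.30, adjusted p = 0.00646). The small GTPase Rhof was at 1437, 1867 and 1749 against 448, 545 and 693 (log2 fold change 1.58 ± 0.26, adjusted p = 0.00785). These were higher in every T-bet+ library, as were Arhgap6 (1.78 ± 0.32) and the scaffold Cass4 (1.74 ± 0.36). Vim, vimentin, was higher in T-bet-, at 2886, 4235 and 3820.3 against 7171, 10192 and 9907 (log2 fold change -1.32 ± 0.21, adjusted p = 0.00818). The myosin Myo7a (-2.94 ± 0.59) and the Cdc42 activator Fgd4 (-3.77 ± 0.90) were too, and Lcp1 did not pass (-0.25 ± 0.22). Cass4 lost the call without T-bet+ replicate 1 or 2 or T-bet- replicate 2 or 3 (adjusted p up to 0.0981). Fgd4 lost the call without T-bet+ replicate 2 or 3 or any 1 T-bet- library (adjusted p up to 0.158). Arhgap6 lost the call without T-bet+ replicate 2 or 3 or T-bet- replicate 2 (adjusted p up to 0.0574). Myo7a lost the call without T-bet+ replicate 2 or T-bet- replicate 2 (adjusted p up to 0.0981). Fgd4 moved to -4.53 on the log2 scale with the class term.

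Ion channels and transporters had 2 higher in T-bet+ and 3 higher in T-bet- of 49 tested (median -0.17). Slc11a1, a metal transporter of phagosomes that limits bacterial growth, was at 251, 234 and 227 against 4370.2, 3788 and 3665 (log2 fold change -4.05 ± 0.19, adjusted p = 3.23e-05). Slc6a12, a betaine transporter, was higher in T-bet+, at 1166, 1236 and 1238 against 195, 173 and 198 (log2 fold change 2.68 ± 0.32, adjusted p = 0.00162). The scramblase Ano6 and the channel subunit Kcne3 were higher in T-bet- (-1.24 ± 0.27 and -3.4 ± 0.75). G protein and small GTPase regulators had 2 higher in T-bet+ and 8 higher in T-bet- of 63 tested (median 0.16, with 5, 4, 4, 4, 5 and 9 higher in T-bet- when a library was left out). Rgs3 was higher in T-bet+, at 2451, 2333 and 2775 against 236, 401 and 903 (log2 fold change 2.29 ± 0.48, adjusted p = 0.0256). Rab7b, a late endosomal GTPase, was at 47.7, 41.6 and 9.83 against 1442, 1434 and 808 (log2 fold change -5.2 ± 0.52, adjusted p = 0.000663), and averaged 27622 in cDC1s. The adenylyl cyclase Adcy4 was at 10.3, 24.8 and 55 against 255, 512 and 386 (log2 fold change -3.68 ± 0.57, adjusted p = 0.00646). Both were higher in every T-bet- library. Rasa3, which turns Ras and Rap off, was at 413, 484 and 332 against 2247, 2048 and 4319.8 (log2 fold change -2.81 ± 0.35, adjusted p = 0.00199). Rab27a, Rab31 and Rab32 were higher in T-bet- as well (-1.65, -1.35 and -1.19). Ano6 and Rab31 lost the call without any 1 T-bet+ library or T-bet- replicate 1 (highest adjusted p 0.1 to 0.136). Rab27a and Rgs3 lost the call without any 1 T-bet+ library or T-bet- replicate 1 or 2 (highest adjusted p 0.0911 to 0.166). Kcne3 lost the call without T-bet+ replicate 2 or 3 or T-bet- replicate 1 or 2 (adjusted p up to 0.124). Ano6, Kcne3 and Rab27a missed the threshold with library class as a term (adjusted p = 0.0517, 0.0549 and 0.153). Rgs3 moved to 1.62 on the log2 scale with the class term.

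The last list was of genes known from B cells, with 7 higher in T-bet+ and 2 higher in T-bet- of 29 tested (median 0.33). Blk, a Src family kinase, was at 804, 705 and 634 against 28.4, 63.2 and 42.7 (log2 fold change 3.99 ± 0.47, adjusted p = 0.00151). Tespa1, an antigen receptor signalling protein, was at 798, 797 and 632 against 137, 91.2 and 112 (log2 fold change 2.71 ± 0.32, adjusted p = 0.00165). The scaffold Bank1 was at 1038, 1125 and 904 against 357, 224 and 153 (log2 fold change 2.07 ± 0.34, adjusted p = 0.00831). These were higher in every T-bet+ library, as were Cr2, Ms4a1, Cd22 and Siglecg above. Cd79b, a chain of the B cell receptor, was higher in T-bet-, at 751, 480.1 and 644 against 2492, 2612 and 1665 (log2 fold change -1.85 ± 0.34, adjusted p = 0.0133). Cd24a was higher in T-bet-, at 393, 526 and 460.0 against 883, 719 and 779 (log2 fold change -0.79 ± 0.19, adjusted p = 0.0451). The defining markers Pax5 and Cd79a were at 0.935, 0 and 0 against 0, 1.22 and 0 and 7.48, 5.31 and 39.3 against 7.95, 0 and 30.2. Cd22, Cd24a and Siglecg lost the call without any 1 T-bet+ library or T-bet- replicate 1 or 2 (highest adjusted p 0.0851 to 0.19). Cd79b lost the call without T-bet+ replicate 2 or 3 (adjusted p up to 0.0755). Cd24a missed the threshold with library class as a term (adjusted p = 0.114).

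**Figure D5:**
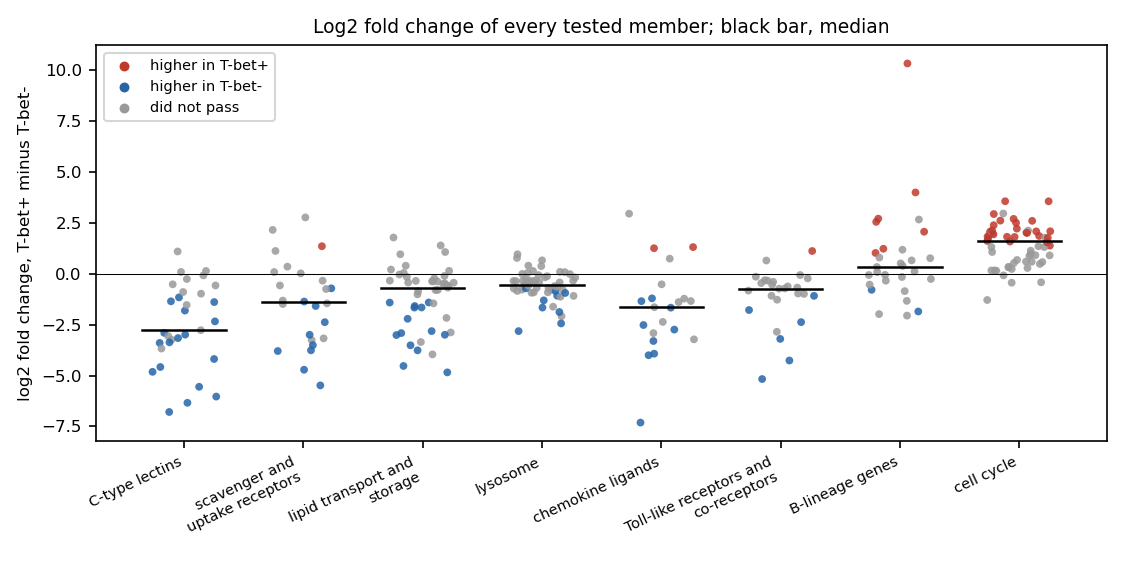
Log2 fold change (T-bet+ minus T-bet-) of every tested member of 8 gene lists, 1 point per gene, coloured by whether the gene was higher in T-bet+, higher in T-bet- or did not pass, with the median as a black bar. Medians run from -2.77 for C-type lectins to 1.60 for cell cycle genes, and the point at 10.33 is Cr2, whose fitted value rests on T-bet- libraries with no read.

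The mesenteric lymph node gave 2 libraries of each cDC2 subset, a separate set of samples. Of genes higher in spleen T-bet+ cDC2s, 245 of 276 tested there had the same sign of log2 fold change in the node (88.8%). Of those higher in T-bet- 456 of 488 did (93.4%), against 62.4% of all 13770 genes tested in both. This is a description, since genes are not independent. In the node itself edgeR called 0 of 15298 genes (0%, 1444 at an unadjusted p under 0.05), and DESeq2, added after the data were seen, called 328. Of the 774 genes, edgeR thus called 0 in the node (376 at an unadjusted p under 0.05) and DESeq2 184. There the log2 fold change was 3.16 ± 0.68 for Dtx1, 5.10 ± 0.65 for Cdh17, -2.34 ± 0.44 for Clec12a and -3.05 ± 0.56 for Csf1r (edgeR, adjusted p = 0.252, 0.0929, 0.194 and 0.194). The difference between tissues was tested for every gene. Gpr4 alone of 16795 (0.00595%) had an adjusted p under 0.05 in edgeR, whereas DESeq2 called 39 genes and edgeR run with low counts kept called 186.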

How the data were processed

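Bulk RNA-seq of splenic T-bet+ and T-bet- cDC2s (3 libraries each) was analysed with 3 spleen cDC1 libraries in the same fit. Reads were aligned by the authors with HISAT2 2.1.0 (mm10), those with a unique position were assigned by Rsubread to genes of GENCODE vM17, and the deposited values are raw counts per gene. Use of strand is not given in the sources used here. One sentence of the study's methods exchanges the signs of RFP, and the labels were followed. ATAC-seq reads were aligned with Bowtie2 2.2.5 by the authors, who called peaks with MACS2 on all libraries together, and deposited counts in windows of 150 bases and summits with a −log10 p-value. Peak counts and peak files were not used here.

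Genes were tested with edgeR 4.0.16 (TMM, filterByExpr, quasi-likelihood F test, Benjamini-Hochberg adjustment over 14377 genes, 6 residual degrees of freedom). Normalized counts are counts per mean effective library size. The SE is the absolute log2 fold change divided by the root of F. Libraries were pools of cells, so p-values measure the spread between pools. Library class was the sign of the rank correlation, past 0.1, between counts and the GC content of the richest 100 bases of transcripts. Totals of 21720113 to 27317480 counts limit low genes only, and intervals and floors cover counting error only. ATAC-seq totals were 7270164 to 10081555. Gene positions came from GENCODE M21 (19698 of 34047 symbols) and sequences from the GRCm38 genome. The genes named were, at a mean of at least 50 normalized counts, the 15 of largest fold in each direction, up to 6 per list and direction and up to 4 per list that did not pass. Members and lists were chosen with earlier results of these data known. The test scripts were tested on simulated data. Alternatives were DESeq2, other scalings and filters, library class, a replicate block and the omission of each library. Replicate numbers were not used as pairs in the main test. Some genes are not reported here.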

Additional observations from a re-analysis of the deposited data

Results flagged for a closer look

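Gpr4, which encodes a proton-sensing receptor, differed between tissues in its T-bet+ minus T-bet- difference. The interaction term was 3.48 on the log2 scale (spleen minus mesenteric lymph node, edgeR over 16 RNA-seq libraries, adjusted p = 0.0273). This was the only gene of 16795 to pass. In spleen the log2 fold change was 3.83 ± 0.26 (SE), with every T-bet+ library above every T-bet- library, and in the node it was 0.31 ± 0.39 (SE). The call for Gpr4 was lost with the replicate block (adjusted p = 0.0817) and with 8 of 10 single libraries left out (edgeR, adjusted p = 0.0351 to 0.237 over the 10), and held in DESeq2 (adjusted p = 3.18e-09). For the tissue difference this block used replicate numbers of the labels, which differ from the numbers in the names of node T-bet- libraries.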

How the results depend on the processing

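With 774 genes called in spleen (280 higher in T-bet+ and 494 higher in T-bet-), DESeq2 called 1413 (566 and 847) and edgeR with low counts kept 1521 (753 and 768), while the newer quasi-dispersion called 450 higher in T-bet+. Replicate numbers were shared by the groups in the labels, and whether they stand for shared pools of mice is not stated. Same-numbered T-bet+ and T-bet- libraries deviated together from their group means by correlations of -0.049 to 0.015. This cannot settle whether they were paired, since T-bet- replicates 1 and 2 also differed from replicate 3 in library class. The replicate block gave 356 (120 and 236). Leaving out single libraries gave 307 (without T-bet+ replicate 2) to 1257 (without T-bet- replicate 3), with 95 to 583 higher in T-bet+ and 212 to 674 higher in T-bet-, and omission of T-bet+ replicate 1, T-bet+ replicate 3, T-bet- replicate 1 or T-bet- replicate 2 gave 326, 360, 446 and 455. The tissue difference passed for 1 gene, and for 39 by DESeq2, 186 without a filter, 0 with the replicate block in edgeR (669 at an unadjusted p under 0.05) and 0 to 3 with a library left out (489 to 1880 at an unadjusted p under 0.05). The 166 genes higher in T-bet- with a window more open in T-bet- became 102 by DESeq2 (21.98%, against 6.11% of all genes), 105 at an adjusted p under 0.001 with a log2 fold change over 1 (22.6% against 6.27%), and 256 within 50000 bases (55.2% against 24.8%), with a range of 120 to 139 when a library was left out. The 120 was 25.9% against 7.46% of all genes, and the 139 was 29.96% against 10.5%. The 131 genes higher in T-bet+ with a window more open in T-bet+ were 50.8% against 21.5% of all genes. They became 90 without ATAC-seq T-bet- replicate 2 (34.9% against 13.6%) and 170 within 50000 bases (65.9% against 40.1%). Every other alternative run lay between these counts. No gene named as passing changed direction in any alternative run. Of named genes that did not pass, Flt3 went from 0.72 to -0.05 on the log2 scale with only the libraries of the higher class. The only T-bet- library in that run was replicate 3. Sirpa went from -0.19 to 0.29 without T-bet- replicate 3, and Ighm and Ccr7 also turned in some runs. The causes of these shifts were not tested. Depth limits genes near 0, where a fitted fold change depends on the prior count.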
